A study of Mus musculus with 149 samples.

Results

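Aldh1a3 and Cyp26b1 encode an enzyme that makes retinoic acid and an enzyme that breaks it down. They were followed here across 20 groups of mouse lungs, as 2 of the 13494 genes measured on the arrays. Each gene was taken from the probe sets whose annotation names that gene alone, with the probe set of highest mean read first and any others used as a check. Aldh1a3 had 3 such probe sets and Cyp26b1 had 1. Both genes were chosen by their values in these same arrays, Aldh1a3 by its difference between 1500 ng TSLP and buffer in sensitized mice at 6 h and Cyp26b1 by the same difference in naive mice at 24 h. Every comparison that uses the groups behind a gene's own choice is therefore given as a description, with no test.

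Retinol reaches cells on a carrier protein and is stored as an ester, which the enzyme encoded by Lrat makes. Retinol dehydrogenases oxidize retinol to retinal, and Dhrs3 encodes an enzyme that turns retinal back into retinol. Aldh1a1, Aldh1a2 and Aldh1a3 encode the retinal dehydrogenases that carry out the last, irreversible step to retinoic acid. Retinoic acid binds the nuclear receptors encoded by Rara, Rarb and Rarg, which pair with the RXR receptors on DNA. The Cyp26 enzymes hydroxylate retinoic acid and so end its action, and Cyp26 genes, Lrat, Dhrs3 and Rarb are textbook genes induced by retinoic acid. In the lung, retinoic acid is known for its part in alveolar and airway epithelium and in the homing of lymphocytes.

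The study exposed BALB/c mice, either sensitized with ovalbumin (OVA) or left naive, to thymic stromal lymphopoietin (TSLP), an epithelial cytokine that acts on dendritic cells, basophils and other cells of type 2 inflammation. In each of the 2 sensitization states, separate groups received saline, buffer (0.1% MSA, an abbreviation the labels do not expand) or TSLP at 150, 500 or 1500 ng, and lungs were taken after 6 or 24 h. This gives 10 OVA and 10 naive groups with no genetic modification named in the labels, of 6 to 8 animals each (149 arrays, 1 per animal), against 8 animals per group in the design. Levels are log2 values made by RMA, so a difference of 1 is a 2-fold change, and levels of different probe sets cannot be ranked against each other.

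The labelled tissue was borne out by its defining transcripts. The mean level of 4 lung markers (the surfactant genes Sftpc and Sftpb, the club cell gene Scgb1a1 and the alveolar type 1 gene Ager) was between 13.87 and 14.22 on every array. A difference between the 3' and 5' probe sets of beta-actin, which grows as RNA is degraded or incompletely copied, had group means of 1.25 to 1.60 at 24 h. At 6 h it was 2.45 in OVA lungs given saline and 2.57 in those given buffer, against 1.79 and 1.26 after 500 and 1500 ng TSLP. It was lower at the higher doses in the groups where Aldh1a3 was highest, and it is given beside the results it moves with. In 6 arrays, keratins of the gullet lay more than 2 log2 units above the median. In whole lung, fewer cells of a type and less RNA per cell cannot be told apart.

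Aldh1a3, the retinal dehydrogenase, spanned 3.90 log2 units between its lowest group mean (6.04, naive buffer 24 h) and its highest (9.94, OVA TSLP 1500 ng 6 h). The highest group is one of those that chose the gene, so this range is a description, and with no detection calls its low end is uncertain. In OVA lungs at 6 h, the levels lay at 5.42 (lowest), 7.02 (median) and 9.51 (highest) with saline (n = 8), and at 5.12, 6.70 and 7.72 with buffer (n = 8). They lay at 6.79, 9.25 and 10.73 with 150 ng TSLP (n = 7), at 7.87, 9.57 and 10.14 with 500 ng (n = 8), and at 8.62, 10.09 and 10.85 with 1500 ng (n = 8). Every lung given 500 or 1500 ng was above every lung given buffer, whereas the saline group overlapped all 3 TSLP groups. In the comparisons with buffer, 41% and 60.7% of all genes were called by adjusted p, which is another measure than overlap. The share of all genes without overlap was not counted, here or in the 24 h comparisons below.

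As group means, Aldh1a3 in OVA lungs at 6 h was 7.20 ± 1.27 with saline, 6.59 ± 0.78 with buffer, 8.81 ± 1.33 with 150 ng, 9.45 ± 0.70 with 500 ng and 9.94 ± 0.75 with 1500 ng TSLP (SD). The difference that led to its choice, 1500 ng minus buffer, was 3.35 (SE 0.43), or 10.2-fold. Against the same buffer group the 500 ng difference was 2.85 and the 150 ng difference 2.21. The saline group and the lower doses played no part in the choice and allow a test, made in 1 limma linear model over all arrays and called at a Benjamini-Hochberg adjusted p below 0.05 over the 13494 genes. Aldh1a3 was higher by 2.25 after 500 ng than after saline (SE 0.43, 4.74-fold, 8 of 8 lungs above the saline mean, limma adjusted p = 1.5e-05) and by 1.60 after 150 ng (SE 0.45, 6 of 7 lungs, limma adjusted p = 0.0329). The same test called 42.2% of all genes for 500 ng and 2.34% for 150 ng, so the 500 ng comparison is one in which a large part of the array moved. The 2 comparisons share their saline group. The 150 ng call held in 8 of 15 fits that left out 1 lung (1.28 to 1.94), whereas the 500 ng call held in 16 of 16 (1.99 to 2.57).

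**Figure D1:**
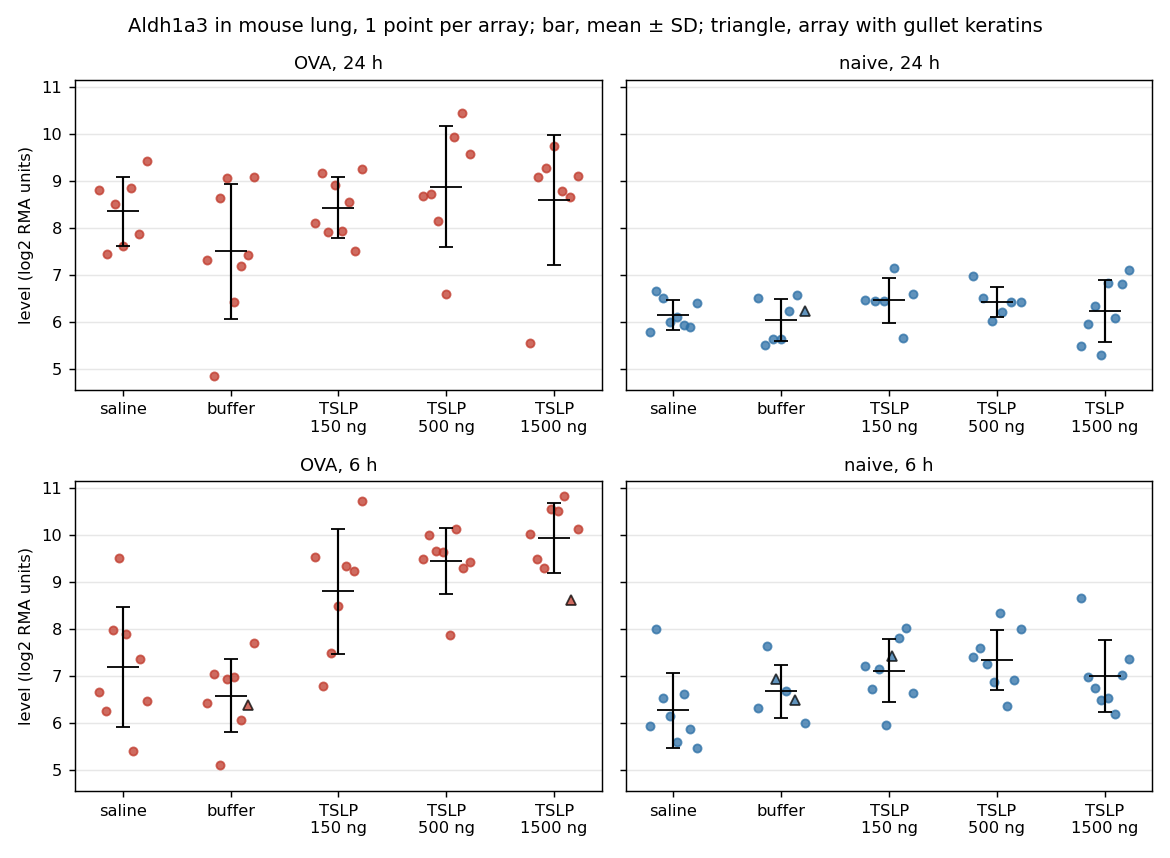
Aldh1a3 level (log2 RMA units) in each lung, by challenge, with OVA groups on the left and naive groups on the right, 24 h above and 6 h below. Points are arrays, bars are mean ± SD and triangles are the 6 arrays with gullet keratins. OVA lungs at 6 h reach 9.94 on average at 1500 ng, and naive lungs at 24 h stay between 6.04 and 6.45 on average in all 5 challenges.

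Several cell type markers moved in the 500 ng comparison too. Of the marker lists, 8 of 9 endothelial and 5 of 5 smooth muscle markers rose, and 4 of 5 mesothelial markers fell. The comparison called 42.2% of all genes. The mean endothelial level was 11.17 to 11.38 over the 500 ng lungs and 10.59 to 11.12 over the saline lungs. For smooth muscle it was 11.93 to 12.47 against 11.20 to 12.26, and for mesothelium 9.51 to 10.39 against 10.20 to 11.10. Other lists shifted as well. Lymphatic endothelial markers averaged 10.49 with 500 ng and 10.14 with saline, and goblet cell markers 10.59 and 11.03. The beta-actin difference changed by -0.65 in the 500 ng lungs. With it as a covariate the Aldh1a3 difference was 1.92 at 500 ng (limma adjusted p = 0.00449) and 1.53 at 150 ng (limma adjusted p = 0.0517). The part of the markers in the Aldh1a3 rise was not tested.

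The other probe sets named for Aldh1a3 showed little of this. The second by mean level had group means between 6.73 and 7.04 and the third between 6.39 and 7.09. Both had their highest group mean in OVA lungs given 1500 ng TSLP at 6 h, where the first is also highest. That group is one of those that chose the gene. The second had 7.04 ± 0.19 (SD) there and nearly the same, 7.03 ± 0.22, in naive lungs given 1500 ng at 24 h. In that naive group the first probe set ranked 18 of 20. For 1500 ng minus buffer in these lungs the second differed by 0.16 and the third by 0.48. For 500 ng minus saline the second differed by 0.27 (limma adjusted p = 0.00102) and the third by 0.17 (limma adjusted p = 0.0809). The annotation gives the third and the first the same transcript record. The size, and for many comparisons the direction and the call, of each Aldh1a3 difference given here rests on 1 probe set of 3. Over the comparisons examined, the second probe set turned 5 directions and lost 8 further calls, and the third turned 1 and lost 10.

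**Figure D2:**
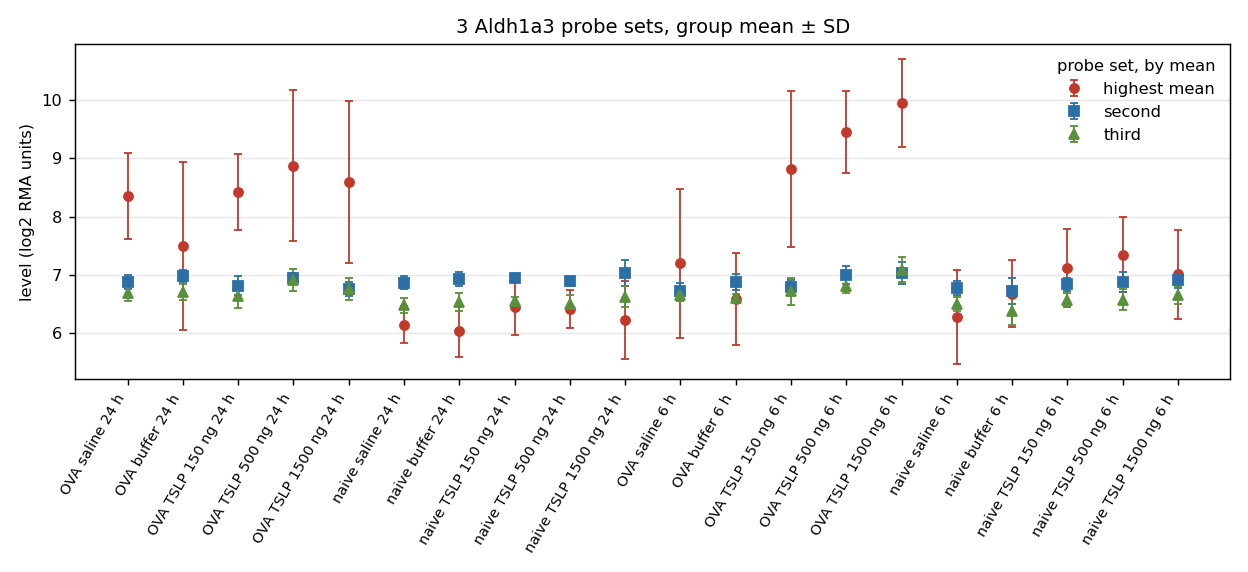
Group mean ± SD (log2 RMA units) of the 3 probe sets named for Aldh1a3 in the 20 groups, 24 h on the left and 6 h on the right, OVA before naive in each. The probe set of highest mean ranges from 6.04 to 9.94, the second from 6.73 to 7.04 and the third from 6.39 to 7.09.

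At 24 h Aldh1a3, read from its first probe set, was higher in OVA than in naive lungs with each of the 5 challenges. With saline, its level was 7.44, 8.51 and 9.42 (lowest, median, highest) in OVA lungs (n = 7), against 5.78, 6.04 and 6.65 in naive lungs (n = 8). No OVA lung overlapped a naive one. The mean difference was 2.20 (SE 0.45, 4.6-fold, 7 of 7 OVA lungs above the naive mean, limma adjusted p = 4.06e-05), in a comparison that called 30.3% of all genes.

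Each of the other 4 challenges at 24 h was compared in its own OVA and naive groups. The difference was 1.46 with buffer (SE 0.45, limma adjusted p = 0.0241, 7 of 8 OVA lungs above the naive mean, 8.57% of all genes called). It was 1.97 with 150 ng TSLP, where no lung of the 2 groups overlapped (SE 0.47, limma adjusted p = 0.00046, 32.5% of genes called). The 500 ng difference was 2.44 (SE 0.48, limma adjusted p = 3.22e-05, 7 of 7, 32.8% called) and the 1500 ng difference 2.36 (SE 0.45, limma adjusted p = 6.89e-06, 6 of 7, 42.5% called). The buffer difference was not called without OVA buffer replicate 3, 4 or 8 (each left out alone, limma adjusted p of 0.061, 0.0975 and 0.102).

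The other Aldh1a3 probe sets did not all follow these 24 h differences. For saline, buffer, 150, 500 and 1500 ng, OVA minus naive was 0.01, 0.05, -0.13, 0.05 and -0.27 on the second probe set. There no call was kept in the direction of the first, and at 1500 ng the opposite one passed (limma adjusted p = 0.00208). On the third it was 0.22, 0.18, 0.08, 0.40 and 0.13, and passed with saline and 500 ng (limma adjusted p = 0.0409 and 0.000318). With the mean of the 3 probe sets it was 0.81, 0.56, 0.64, 0.96 and 0.74, and all 5 passed. That mean contains the first probe set, so it is no separate check on it.

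At 6 h the OVA minus naive difference passed with 150 and 500 ng TSLP and not with saline. With saline it was 0.92 (SE 0.43, limma adjusted p = 0.11, 6 of 8 OVA lungs above the naive mean), with a 95% interval of 0.07 to 1.78. With 150 ng TSLP it was 1.68 (SE 0.45, limma adjusted p = 0.00116, 46% of genes called) and with 500 ng 2.10 (SE 0.43, limma adjusted p = 0.000109, 32% called). As descriptions, it was -0.09 with buffer and 2.93 with 1500 ng. On the second probe set the 150 and 500 ng differences were -0.03 and 0.12, neither of them called. The beta-actin difference changed by 0.64 and 0.35 in the 150 and 500 ng comparisons and by 0.03 with saline. With it as a covariate the Aldh1a3 differences were 2.0, 2.27 and 0.94, with the same calls. All 8 goblet cell markers were higher in OVA lungs in each of these 3 comparisons. Their mean level was 10.38 to 11.56 in OVA and 7.50 to 8.47 in naive lungs with 150 ng, 9.16 to 11.23 and 6.98 to 9.55 with 500 ng, and 10.42 to 11.73 and 6.99 to 8.32 with saline. Of the T cell markers, 2 of 6 were higher with 150 ng, 4 of 6 with 500 ng and 1 of 6 with saline, and of the fibroblast markers 6, 4 and 5 of 9 were lower. Of all genes, 46% were called with 150 ng, 32% with 500 ng and 23.5% with saline. Beside these shares, the T cell counts with 150 ng and with saline are not read as a change in T cells. The part of these markers in the Aldh1a3 differences was not tested.

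The effect of 500 ng over saline was larger in OVA than in naive lungs by 1.18 at 6 h, which did not pass (SE 0.61, limma adjusted p = 0.35, 95% interval -0.03 to 2.38).

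**Figure D3:**
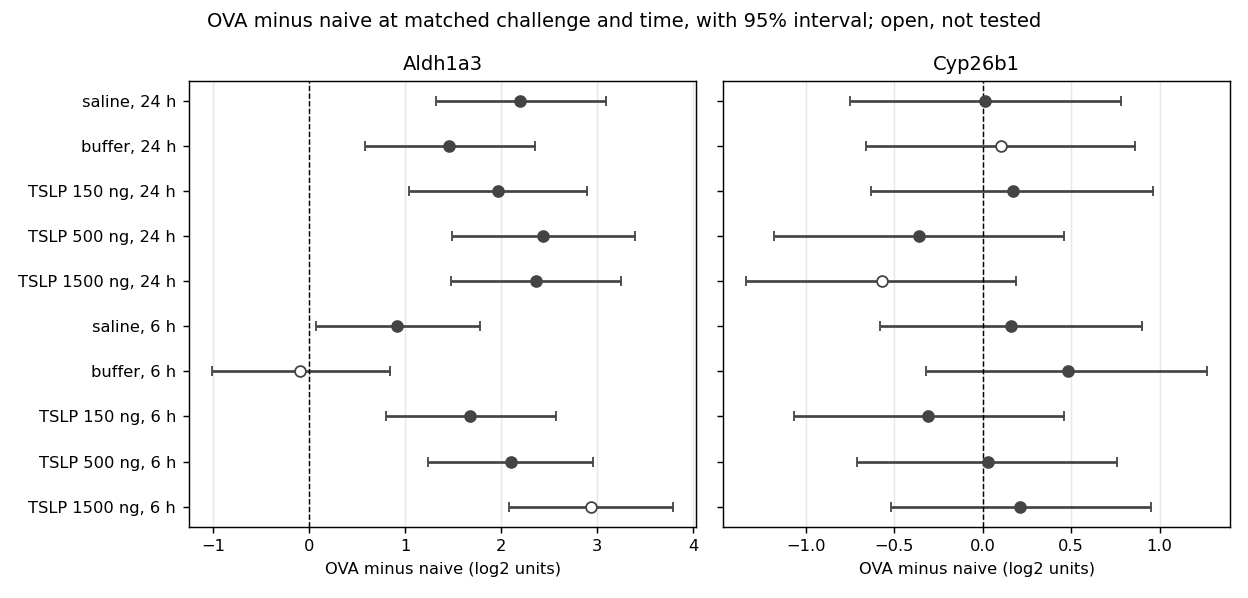
Difference OVA minus naive (log2 units, with 95% interval) at each challenge and time, Aldh1a3 on the left and Cyp26b1 on the right. Filled points were tested and open points were not, because their groups chose the gene. For Aldh1a3 the 24 h differences on its first probe set lie between 1.46 and 2.44, and for Cyp26b1 every interval crosses 0.

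The markers of airway and immune cells differed between the same OVA and naive lungs. With saline at 24 h, 8 of 8 goblet cell markers, 6 of 7 dendritic cell, 5 of 6 T cell, 4 of 5 smooth muscle and 3 of 4 eosinophil markers were higher in OVA lungs. The comparison called 30.3% of all genes. The mean goblet marker level was 10.06 to 11.38 in OVA lungs and 6.96 to 8.71 in naive lungs. The mean eosinophil marker level was 7.39 to 9.10 in OVA lungs and 6.05 to 6.45 in naive lungs. Dendritic cell markers averaged 9.58 to 9.82 in OVA lungs and 9.02 to 9.23 in naive lungs, T cell markers 9.44 to 9.96 and 8.77 to 9.36, and smooth muscle markers 12.16 to 12.53 and 11.70 to 12.06. Mean levels were lower in OVA lungs for club cell (13.61 against 13.80), fibroblast (11.09 against 11.28) and mesothelial markers (9.81 against 10.09). The part of these cells in the Aldh1a3 difference was not tested. The beta-actin difference changed by -0.10 between these groups, and with it as a covariate the Aldh1a3 difference was 2.15.

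In OVA lungs at 24 h, the mean Aldh1a3 level was 8.35 ± 0.73 with saline, 7.50 ± 1.44 with buffer, and 8.42, 8.87 and 8.59 with 150, 500 and 1500 ng TSLP. The 500 and 1500 ng groups passed the test against buffer, and no TSLP group passed it against saline. The levels ran through 4.85, 7.37 and 9.08 (lowest, median, highest) with buffer, 7.51, 8.33 and 9.25 with 150 ng, 6.58, 8.72 and 10.44 with 500 ng and 5.55, 9.07 and 9.73 with 1500 ng. All of these groups overlapped. Against buffer, the difference was 0.92 for 150 ng (SE 0.43, limma adjusted p = 0.15). It was 1.37 for 500 ng (SE 0.45, limma adjusted p = 0.0322, 6 of 7 lungs, 11.8% of genes called) and 1.09 for 1500 ng (SE 0.45, limma adjusted p = 0.0426, 6 of 7 lungs, 38.5% called). The 500 ng call held in 9 of 15 fits that left out 1 lung and the 1500 ng call in 4 of 15. Neither held in a fit of only the compared groups (limma adjusted p = 0.179 and 0.218), and the 1500 ng call was lost with the mean of the 3 probe sets (0.31, limma adjusted p = 0.149). The second probe set gave -0.04 and -0.22 for these differences. Against saline, the differences were 0.06, 0.51 and 0.24 for 150, 500 and 1500 ng (limma adjusted p = 0.991, 0.591 and 0.747). Buffer minus saline was -0.85 (limma adjusted p = 0.408). Without the lowest buffer lung (replicate 2, 4.85) the 500 ng and 1500 ng differences were 0.99 and 0.72, while without the lowest 1500 ng lung (replicate 1, 5.55) the 1500 ng difference was 1.60.

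In naive lungs Aldh1a3 passed the test in 1 comparison of TSLP with saline or buffer, 500 ng against saline at 6 h. At 6 h its level was 5.48, 6.05 and 8.00 (lowest, median, highest) with saline, 6.01, 6.59 and 7.64 with buffer and 6.37, 7.34 and 8.34 with 500 ng TSLP. It was higher by 1.07 after 500 ng than after saline (SE 0.43, limma adjusted p = 0.0272, 8 of 8 lungs above the saline mean), in a comparison that called 57.5% of all genes. The beta-actin difference changed by -0.98 in those 500 ng lungs, and with it as a covariate the Aldh1a3 difference was 0.59 (limma adjusted p = 0.45). The 150 ng difference from saline was 0.84 (SE 0.43, limma adjusted p = 0.0948) and the 1500 ng one 0.73 (limma adjusted p = 0.169). After 1500 ng the level was 0.32 above buffer at 6 h (SE 0.47, limma adjusted p = 0.674, 95% interval -0.60 to 1.25) and 0.19 above buffer at 24 h (SE 0.45, limma adjusted p = 0.871, 95% interval -0.69 to 1.08).

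The change of Aldh1a3 from 6 to 24 h differed between OVA lungs given saline and those given 500 ng TSLP. With saline it was higher at 24 h than at 6 h by 1.15 (SE 0.45, limma adjusted p = 0.02, 7 of 7 lungs above the 6 h mean), where 61% of all genes were called. With 500 ng TSLP 24 h minus 6 h was -0.58, which did not pass (limma adjusted p = 0.405). The 500 ng effect over saline was smaller at 24 h than at 6 h, with a difference of -1.73 (SE 0.63, limma adjusted p = 0.0229, 36.9% of genes called for this difference). In naive lungs given saline the 24 h level differed from the 6 h level by -0.13 (SE 0.43, limma adjusted p = 0.814). With the beta-actin difference as a covariate, the rise with time in OVA saline lungs was 0.58 (limma adjusted p = 0.482) and the change in the 500 ng effect was -1.36 (limma adjusted p = 0.169).

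Of the 43 comparisons in which Aldh1a3 could be tested, it passed upward in 13 and downward in 1, and all of them are given above. Ordered by group mean, its 20 groups form 19 neighbouring pairs, and in none of them was the gap larger than the larger of the 2 SDs. The TSLP groups of OVA lungs at 6 h stand at the high end of this order and the naive groups at 24 h at the low end.

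The genes whose 20 group means followed Aldh1a3 most closely were Tnfaip6 (r = 0.96), a hyaluronan-binding protein of inflamed matrix, F3 (0.95), which encodes tissue factor, and Slc7a2 (0.95), an arginine transporter. Next came Cish (0.94), a feedback inhibitor induced by STAT5, Il33 (0.94), an epithelial alarmin, and Nme7 (0.93). Within groups, after each group's mean was removed over the 149 arrays, the closest was Ccl11, an eosinophil chemokine (r = 0.82, rho = 0.80). It was followed by Vcan, a matrix proteoglycan (0.78), Il13ra2, a decoy receptor for IL-13 (0.75), Ffar2, a receptor for short-chain fatty acids (0.75), Gclc, an enzyme of glutathione synthesis (0.74), and Slc5a1, a glucose transporter (0.74). The Ccl11 correlation was positive inside 20 of 20 groups (0.33 to 0.97), at 0.81 among 24 h and 0.84 among 6 h arrays, and at 0.83 in OVA and 0.78 in naive lungs. A single lung shows it: OVA TSLP 1500 ng 24 h replicate 1 had the group's lowest level of both Aldh1a3 (5.55) and Ccl11 (9.80). The correlations carry no test, use only the first Aldh1a3 probe set, and both genes of a pair come from the same arrays. Those over group means include the groups that chose Aldh1a3, and the share of all genes with such values was not counted. Within groups 1.89% of genes had r above 0.5 with Aldh1a3, and none of the 13 measured retinoic acid target genes did.

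Cyp26b1, the enzyme that clears retinoic acid, lies on chromosome 6 (84571414 to 84593908, minus strand, GRCm38.p6), and Aldh1a3 on chromosome 7 (66390892 to 66427477). Its single probe set makes no check between probe sets possible. The RefSeq promoter table holds 1 window for Cyp26b1. The 152 bases of it that lie upstream of the gene, chr6:84593909-84594060 on the minus strand, are shown because Cyp26b1 moved with Lrat and Dhrs3 from animal to animal, as described below. Capitals mark a TATAAA match that starts 41 bases before the annotated gene start.

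Cyp26b1 promoter: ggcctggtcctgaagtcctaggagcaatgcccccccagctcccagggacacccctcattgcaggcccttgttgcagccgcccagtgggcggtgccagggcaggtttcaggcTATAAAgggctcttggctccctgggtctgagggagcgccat

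The 152 bases are 65.1% G or C. On either strand, TATAAA occurs in 13.6% of the 32851 promoter windows, and not in those of Lrat or Dhrs3. The retinoic acid receptor half-site AGGTCA occurs in 16.3% of the windows, and not in those of Cyp26b1, Lrat or Dhrs3. The STAT-type motif TTCNNNGAA occurs in 8.3% of the windows and in none of these either. With 1 more N between its TTC and GAA, it occurs in 6.95% of the windows and has 2 matches over the 3 windows of Dhrs3, which may overlap, with none in those of Cyp26b1 or Lrat. A match is a description of letters in a short window.

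Across groups Cyp26b1 ranged from 7.09 (naive buffer 24 h) to 8.48 (naive TSLP 1500 ng 24 h), which is 1.40 log2 units and again ends at groups that chose the gene. In naive lungs at 24 h, its levels were 6.69, 7.05 and 7.79 (lowest, median, highest) with saline, 6.78, 7.06 and 7.40 with buffer, and 6.79, 6.95 and 8.40 with 150 ng TSLP. They were 6.83, 7.46 and 8.84 with 500 ng and 7.12, 8.34 and 10.52 with 1500 ng. Of the 8 lungs given 1500 ng, 2 lay inside the range of the buffer lungs, and the highest stood at 10.52.

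The means of these naive 24 h groups were 7.09 ± 0.35 with saline, 7.09 ± 0.29 with buffer, 7.16 ± 0.62 with 150 ng, 7.63 ± 0.68 with 500 ng and 8.48 ± 1.16 with 1500 ng TSLP (SD). The difference that chose the gene, 1500 ng minus buffer, was 1.40 (SE 0.39, 2.63-fold, 8 of 8 lungs above the buffer mean), and it was 1.10 without the highest lung. The untouched comparison of 500 ng with saline gave 0.54 (SE 0.40, limma adjusted p = 1, unadjusted p = 0.179 in limma, 95% interval -0.25 to 1.34). Few genes moved in these lungs, with 0.978% of all genes called for 1500 ng minus buffer. The clock genes, which follow the time of day, were among them, with 5 of 12 higher and 2 of 12 lower, and 3 of 6 basophil and mast cell markers were higher. The mean level of the basophil and mast cell markers was 7.04 to 7.70 in the 1500 ng lungs and 6.43 to 7.05 in the buffer lungs.

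**Figure D4:**
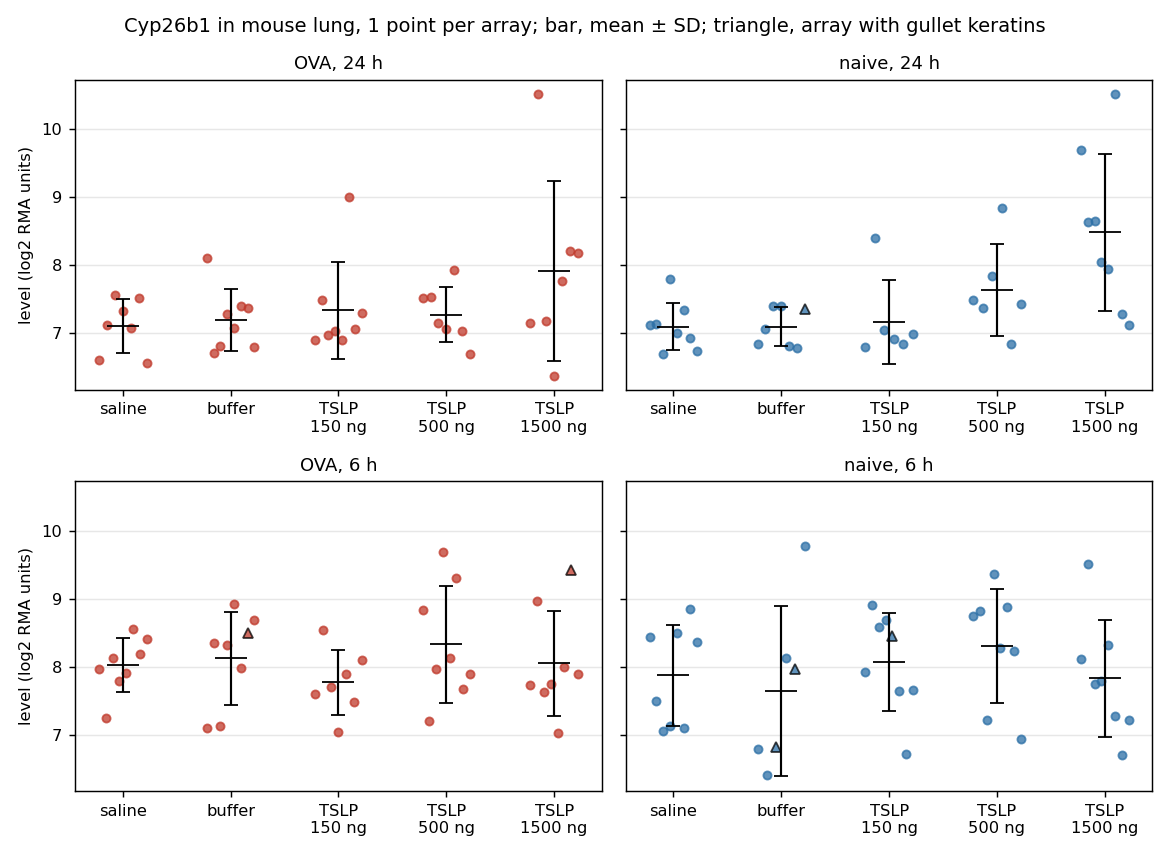
Cyp26b1 level (log2 RMA units) in each lung, by challenge, with OVA groups on the left and naive groups on the right, 24 h above and 6 h below. Points are arrays, bars are mean ± SD and triangles are arrays with gullet keratins. The saline and buffer means lie between 7.09 and 7.19 at 24 h and between 7.64 and 8.12 at 6 h, and 1 lung in each 1500 ng group at 24 h reaches 10.52.

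The OVA lungs of the same dose and time were not used to choose Cyp26b1. They had 6.37, 7.76 and 10.52 (lowest, median, highest) after 1500 ng TSLP (n = 7), 6.70, 7.17 and 8.10 after buffer (n = 8) and 6.55, 7.12 and 7.56 after saline (n = 7). The 1500 ng difference was 0.72 against buffer (SE 0.39, limma adjusted p = 0.129, 4 of 7 lungs above the buffer mean, 95% interval -0.04 to 1.49) and 0.81 against saline (SE 0.40, limma adjusted p = 0.117, 6 of 7). Without the lung at 10.52 the difference from buffer was 0.29. At 6 h, 1500 ng differed from buffer by -0.07 in OVA lungs (limma adjusted p = 0.877, 95% interval -0.81 to 0.66) and by 0.19 in naive lungs (limma adjusted p = 0.789, 95% interval -0.61 to 0.99).

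The calls for Cyp26b1 were all between times. In OVA lungs given saline, its level was 6.55, 7.12 and 7.56 (lowest, median, highest) at 24 h, against 7.25, 8.04 and 8.56 at 6 h. At 24 h it fell by 0.92 (SE 0.39, limma adjusted p = 0.0317, 7 of 7 lungs below the 6 h mean), in a comparison that called 61% of all genes. With buffer the difference was -0.94 (SE 0.37, limma adjusted p = 0.0231, 8 of 8 lungs, 61.8% of genes called) and with 500 ng TSLP -1.06 (SE 0.39, limma adjusted p = 0.0489, 7 of 7 lungs, 13.8% called). These 3 were the only calls among its 43 tested comparisons. When 1 lung was left out in turn, the 500 ng call held in 4 of 15 fits, the saline call in 11 of 15 and the buffer call in 8 of 8, of which only 24 h lungs were left out. With array weights the saline and buffer calls were lost (-0.89 and -0.67, limma adjusted p = 0.0663 and 0.149).

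In the other 5 pairs of groups that could be tested, the same comparison gave negative values that did not pass. It was -0.78 in naive saline lungs (SE 0.37, limma adjusted p = 0.0625, 8 of 8 lungs below the 6 h mean), -0.91 and -0.67 in naive lungs given 150 and 500 ng (limma adjusted p = 0.113 and 0.433), and -0.44 and -0.14 in OVA lungs given 150 and 1500 ng (limma adjusted p = 0.364 and 0.82). In the 2 naive pairs whose 24 h groups chose the gene, and which have no test, it was -0.56 with buffer and 0.65 with 1500 ng. The beta-actin difference changed by -1.18 from 6 to 24 h in OVA saline lungs and by -1.30 in OVA buffer lungs. With it as a covariate the Cyp26b1 differences were -1.46 with saline and -1.53 with buffer. Of the clock genes, 3 of 12 were higher and 7 of 12 lower at 24 h in OVA saline lungs. There 61% of all genes were called. The mean level of the clock genes was 10.06 to 10.78 at 24 h and 10.43 to 10.72 at 6 h, which overlap. The part of the clock genes in the Cyp26b1 difference was not tested, and the labels used here give no time of day.

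No difference in Cyp26b1 between OVA and naive lungs was detected. With saline, OVA minus naive was 0.01 at 24 h (SE 0.39, limma adjusted p = 0.985, 95% interval -0.75 to 0.78) and 0.16 at 6 h (SE 0.37, limma adjusted p = 0.801, 95% interval -0.58 to 0.90). The effect of 500 ng over saline at 24 h differed between OVA and naive lungs by -0.38 (SE 0.57, limma adjusted p = 0.864). As for Aldh1a3, no neighbouring pair of its 20 ordered group means differed by more than the larger SD.

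Both genes, with Aldh1a3 read from its first probe set, varied unusually among animals of 1 group. The residual SD was 0.87 for Aldh1a3, larger than that of 99.1% of genes, and 0.75 for Cyp26b1, larger than that of 98.7%. The other Aldh1a3 probe sets did not show this spread. Their SD inside groups ran from 0.06 to 0.22 on the second and from 0.07 to 0.24 on the third. Aldh1a3, again on its first probe set, and Cyp26b1 did not vary together. Their deviations from group means had r = -0.14 over 149 arrays (0.02 in OVA and -0.42 in naive lungs), and their 20 group means had r = 0.13.

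Cyp26b1 varied from animal to animal with a few genes of its own pathway. Within groups its closest gene among 13493 was Lrat, the retinol-esterifying enzyme (r = 0.66, rho = 0.65). Dhrs3, the retinal reductase, ranked 3 (r = 0.56) and Rarb, the retinoic acid receptor gene, ranked 10 (r = 0.42). Mbd1, a methyl-DNA binding protein gene, ranked 2 (r = 0.59), Ston2 followed Dhrs3 (0.51), and Etfbkmt and Alkbh7 came next (0.50 and 0.49). Of the 13493 genes, 5 had r above 0.5, or 0.0371% of all, among them 2 of the 13 measured retinoic acid targets other than Cyp26b1 (Lrat and Dhrs3). The middle 95% of genes lay between -0.21 and 0.19. Of the 48 other measured retinoid genes, 2 had r above 0.5 and 17 had r below 0, with a median of 0.06 and a lowest value of -0.20 (Rdh10, a retinol dehydrogenase). The other targets lay lower, with a median of 0.12 over the 13 against -0.01 over all genes.

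The Lrat correlation was positive inside 20 of 20 groups (0.11 to 0.91) and the Dhrs3 correlation inside 19 of 20. For Lrat it was 0.67 among 24 h arrays (n = 72) and 0.66 among 6 h arrays (n = 77), 0.62 in OVA and 0.73 in naive lungs, and 0.67 in TSLP lungs against 0.68 in saline and buffer lungs. It was 0.64 without the 2 arrays of highest Cyp26b1. In OVA lungs given 1500 ng TSLP at 24 h, replicate 2 had 10.52 for Cyp26b1, 11.35 for Lrat and 12.21 for Dhrs3, the highest of its group for each gene. Replicate 4 had the lowest of each, at 6.37, 9.68 and 11.59. In naive lungs of the same dose and time, replicate 6 was highest for each, at 10.52, 11.79 and 12.44. Not every lung followed, as replicate 1 of that naive group had the next highest Cyp26b1 (9.69) and the lowest Dhrs3 (12.00). The arrays share dissection, RNA and hybridization within each animal, and the correlations with the beta-actin difference were -0.16 for Cyp26b1 and -0.14 for Aldh1a3.

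**Figure D5:**
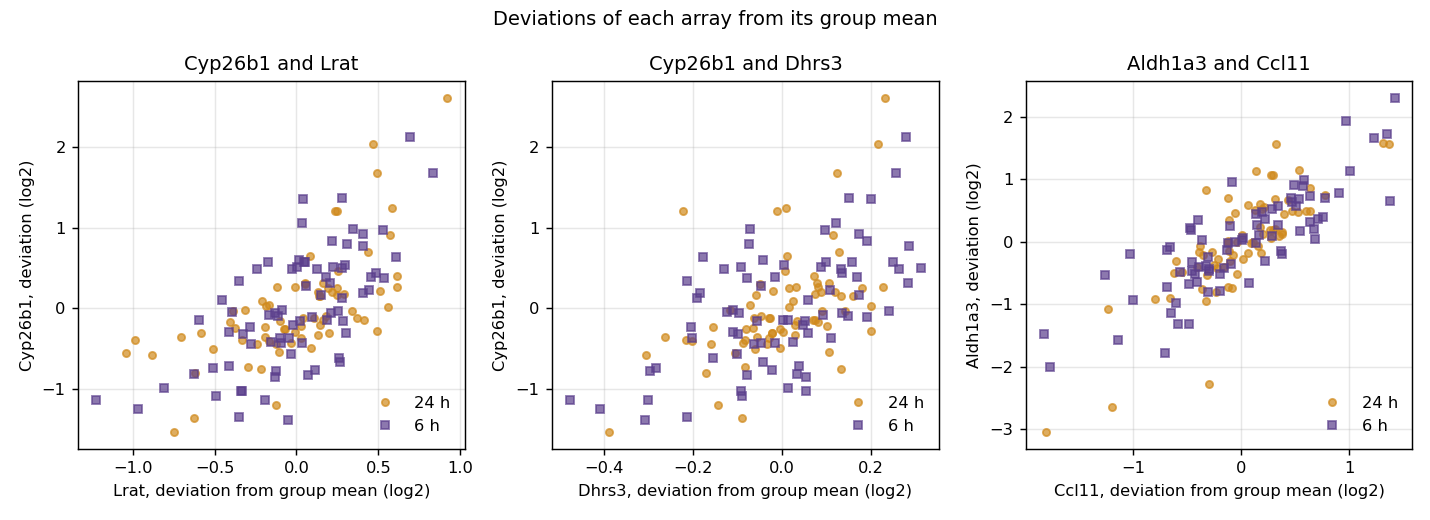
Each array's deviation from its group mean (log2 units) for Cyp26b1 against Lrat, Cyp26b1 against Dhrs3 and Aldh1a3 against Ccl11, with circles for 24 h and squares for 6 h. The points rise together in each panel, with r of 0.66, 0.56 and 0.82 over 149 arrays.

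Between groups the same genes did not move as one. For 1500 ng minus buffer in naive lungs at 24 h, Lrat differed by 0.28 (SE 0.21, limma adjusted p = 0.536) and Dhrs3 by -0.08 (SE 0.08, limma adjusted p = 0.657). From 6 h to 24 h in OVA saline lungs Dhrs3 was higher at 24 h by 0.51 (SE 0.08, limma adjusted p = 5.85e-08), opposite in sign to Cyp26b1. The genes whose 20 group means came closest to those of Cyp26b1 were Etfbkmt (r = 0.85), a methyltransferase gene, the clock genes Per2 (0.78), Per1 (0.78), Per3 (0.77) and Tef (0.77), and Stbd1 (0.78), a glycogen-binding protein gene. These group means include the groups that chose Cyp26b1, and the share of all genes with such values was not counted. Within groups Per2 had an r of -0.01 with Cyp26b1 and Etfbkmt one of 0.50.

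The rest of the retinoid pathway was counted over a list of 70 genes of uptake, synthesis, breakdown, receptors and known targets, of which 50 were measured, 48 of them besides the 2 genes described. For 1500 ng minus buffer, 8 rose and 16 fell in OVA lungs at 6 h, where 60.7% of all genes were called, and the median of the 48 was -0.03 against -0.06 over all genes. In naive lungs at 6 h, 5 rose and 3 fell (15.3% of all genes called), in OVA lungs at 24 h, 7 rose and 11 fell (38.5% of all genes called), and in naive lungs at 24 h the single one called was a rise (0.978% of all genes called). For 500 ng minus buffer in OVA lungs at 24 h, 4 of 48 rose and 6 fell, or 20.8%, where 11.8% of all genes were called.

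The Aldh1a genes related to Aldh1a3 did not all move in its direction. Over the 20 groups, means of Aldh1a1 lay between 13.35 and 13.57, of Aldh1a2 between 9.48 and 10.48, and of Aldh1a7 between 12.26 and 12.92. After 500 ng TSLP against saline in OVA lungs at 6 h, Aldh1a2 fell by 0.48 (SE 0.15, limma adjusted p = 0.00746) and Aldh1a1 fell by 0.15 (SE 0.04, limma adjusted p = 0.000459), opposite to Aldh1a3. Aldh1a7 averaged 12.71 ± 0.16 (SD) with 500 ng and 12.88 ± 0.14 with saline. Of the 4 other measured genes in the part of the list that holds Aldh1a3, 3 were called lower and none higher, where 42.2% of all genes were called. At 24 h with saline, Aldh1a2 was higher in OVA than in naive lungs by 0.43 (limma adjusted p = 0.0264) and Aldh1a7 by 0.46 (limma adjusted p = 6.82e-08), in the same direction as Aldh1a3. There 30.3% of all genes were called.

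Among the receptors and cofactors, 6 of 10 rose and 2 of 10 fell after 500 ng TSLP against saline in OVA lungs at 6 h, where 42.2% of all genes were called and the beta-actin difference changed by -0.65. In naive lungs at 6 h, 6 of 10 rose and 3 of 10 fell against saline after each of 150, 500 and 1500 ng, where 50.4%, 57.5% and 42.8% of all genes were called. The beta-actin difference changed by -0.77, -0.98 and -0.81 in these, and its part in the counts was not tested. Against buffer at 6 h, 4 of 10 rose and 3 fell with 500 ng in OVA lungs (41% of all genes called). In naive lungs at 6 h, 3, 4 and 3 rose and 3, 3 and 2 fell against buffer after 150, 500 and 1500 ng. There 27.2%, 42.1% and 15.3% of all genes were called. In naive saline lungs 6 of 10 were higher and 2 of 10 lower at 24 h than at 6 h (61.2% called). There the beta-actin difference changed by -1.04. For 500 ng against saline in the OVA lungs at 6 h, Rarg rose by 0.62 (SE 0.12), Rxra by 0.25 and Rara by 0.19. In the same comparison Rxrg fell by 0.25 and Rxrb fell by 0.23. Mean Rarg in OVA lungs at 6 h was 9.24 ± 0.47 with saline, 9.56 ± 0.10 with buffer and 9.86 ± 0.17 with 500 ng (SD). Rxra averaged 10.77, 10.95 and 11.02 in these groups and Rara 7.60, 7.80 and 7.79, so Rara was not above buffer. Rxrg averaged 7.48, 7.55 and 7.23 and Rxrb 11.45, 11.47 and 11.21 in the same order. Of the 14 measured retinol and retinal enzymes, 1 rose and 3 fell (28.6%) for 500 ng in OVA lungs. Adh1, an alcohol dehydrogenase that can oxidize retinol (named here after its values were seen), fell by 0.39 (SE 0.09, limma adjusted p = 0.00053), and Rdh5, a retinol dehydrogenase, fell by 0.35 (SE 0.08, limma adjusted p = 0.000507).

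After 1500 ng against buffer in OVA lungs at 6 h, the retinoid genes with the smallest p values were Plaat3 (0.89 higher), Ppard (-0.58), Rdh5 (-0.65) and Dgat1 (-0.47). In OVA lungs at 24 h they were Ncoa1 (-0.34), Rbp7, a retinol-binding protein gene (-1.37), Rarres1 (-0.77) and Ppard (0.32). In naive lungs at 24 h the one called was Rdh14, a retinol dehydrogenase (0.16, SE 0.04, limma adjusted p = 0.0219).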

How the data were processed

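Whole-lung RNA from 149 BALB/c mice was measured on Affymetrix 3' arrays, labelled from 100 ng of RNA with integrity numbers above 6, per the labels' protocols. The authors deposited log2 values, for which the submitters' processing notes name RMA. Neither its version nor a filter on probe sets is stated there. There were 26166 probe sets. Array medians lay between 8.968 and 9.164, and single values between 2.95508 and 15.1059. The table carries no counts or detection calls, so the number of arrays limits the precision. No 2 arrays were identical.

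Of the probe sets, 22892 named 1 gene, 260 several and 3014 were not listed in the annotation table. The probe set of highest mean stood for each of 13494 genes. Groups came from the labels. A limma 3.58.1 model in R 4.3.3 fitted a mean for each group on the whole set of arrays, moderated by eBayes (residual df 129, prior df 2.875), and gave 52 comparisons, two-sided, adjusted by Benjamini-Hochberg over all genes at 0.05. Animals differ between arrays, so p values measure the spread between animals. Alternatives were other probe sets and their mean, a filter on dim genes, quantile normalization, the animal number as a block, a trended robust prior, array weights, the beta-actin difference as a covariate, only the compared groups, and arrays left out in turn. For comparisons other than 1500 ng with buffer and 500 ng with saline, leaving arrays out was added after the data were seen, as was the split of within-group correlations by time and sensitization. Similar genes were the 6 with the highest Pearson r over the 20 group means and the 6 with the highest r over deviations from group means. Retinoid genes named are up to 4 with the smallest p in each comparison of 1500 ng with buffer, with related enzymes and receptors added. The fit was tested on simulated data. The genes, lists, rules and tests were chosen with earlier results of these data known. Promoter windows are RefSeq's, of GRCm38.p6.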

Additional observations from a re-analysis of the deposited data

Results flagged for a closer look

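Of the 40 sets of levels (2 genes in 20 groups), 5 had a highest or lowest lung farther from its group than Dixon's 95% critical value allows. Chance gives about 1 in 20 such sets. For Aldh1a3 these were naive saline 6 h replicate 2 at 8.00, OVA TSLP 500 ng 6 h replicate 5 at 7.87 and OVA TSLP 1500 ng 24 h replicate 1 at 5.55. For Cyp26b1 they were naive TSLP 150 ng 24 h replicate 2 at 8.40 and OVA TSLP 150 ng 24 h replicate 6 at 9.0.

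The effect of 500 ng TSLP over saline on Aldh1a3 in OVA lungs differed between 24 h and 6 h, by -1.73 (SE 0.63, limma adjusted p = 0.0229). In naive lungs the same difference was -0.80 (limma adjusted p = 0.34). The call in OVA lungs was lost with the beta-actin covariate, in a fit of only the compared groups and on the second probe set. On the third probe set its sign was turned.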

How the results depend on the processing

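The values carry no detection calls, and both genes fall below a filter on the dimmest 40% of genes (mean under 9.201), so that filter gave no value for them. A trended robust prior and leaving out the 6 arrays with gullet keratins moved no result across the threshold or to the other sign.

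The second Aldh1a3 probe set by mean gave small values throughout. It turned the sign for OVA lungs at 24 h given 500 ng (-0.04) and 1500 ng (-0.22) against buffer, and for OVA minus naive with 150 ng at 6 h (-0.03), 150 ng at 24 h (-0.13) and 1500 ng at 24 h (-0.27). It was no longer past the threshold for 150 ng against saline in OVA lungs at 6 h (0.07), 500 ng against saline in naive lungs at 6 h (0.10), the change of the 500 ng effect with time (-0.21), OVA minus naive with 500 ng at 6 h (0.12) and with saline (0.01), buffer (0.05) and 500 ng (0.05) at 24 h, and 24 h minus 6 h in OVA saline lungs (0.15). The untested values in OVA lungs at 6 h were 0.16 for 1500 ng and 0.12 for 500 ng against buffer and 0.31 for 1500 ng against saline.

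The third Aldh1a3 probe set turned the sign of the change of the 500 ng effect with time (0.04). Calls were lost for 150 ng (0.07) and 500 ng (0.17) against saline in OVA lungs at 6 h, 500 ng against saline in naive lungs (0.08), 500 ng (0.19) and 1500 ng (0.05) against buffer in OVA lungs at 24 h, OVA minus naive with 150 ng at 6 h (0.15) and with buffer (0.18), 150 ng (0.08) and 1500 ng (0.13) at 24 h, and 24 h minus 6 h in OVA saline lungs (0.05). A call was gained for 1500 ng against buffer in naive lungs at 6 h (0.26). The untested values in OVA lungs at 6 h were 0.48, 0.21 and 0.44. With the mean of the 3 probe sets these were 1.33, 1.06 and 1.16, and 1500 ng against buffer in OVA lungs at 24 h was 0.31 (limma adjusted p = 0.149).

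For Cyp26b1, 24 h minus 6 h in OVA lungs given 500 ng was not called with mean probe sets (-1.06), quantile normalization (-1.04), the animal number as a replicate block (-1.02) or only the compared groups (-1.06), with limma adjusted p of 0.0536 to 0.0544. The block changed no other call. Same-numbered lungs had a median correlation of 0.008, against 0.005 for other numbers, so the numbers do not pair animals. Array weights lost 24 h minus 6 h in OVA saline (-0.89) and buffer lungs (-0.67) and gained 1500 ng against saline in OVA lungs at 24 h (1.12). With the beta-actin covariate, Aldh1a3 lost 150 ng against saline in OVA lungs at 6 h (1.53), 500 ng against saline in naive lungs at 6 h (0.59), the change of the 500 ng effect with time (-1.36) and 24 h minus 6 h in OVA saline lungs (0.58), and Cyp26b1 gained 24 h minus 6 h in naive saline lungs (-1.26). Fits of only the compared groups lost 6 Aldh1a3 calls, at unchanged values of 1.60, 1.37, 1.09, -1.73, 1.46 and 1.15 (limma adjusted p of 0.396, 0.179, 0.218, 0.0603, 0.111 and 0.058), and gained the Cyp26b1 value of -0.78.

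Leaving out 1 lung at a time kept the calls for Aldh1a3 with 500 ng against saline in OVA lungs at 6 h (1.99 to 2.57, 16 of 16) and for OVA minus naive with saline at 24 h (2.03 to 2.36, 15 of 15), and for Cyp26b1 between times in OVA buffer lungs (-1.07 to -0.87, 8 of 8 lungs of the 24 h group). For Aldh1a3, 150 ng against saline in OVA lungs at 6 h ran from 1.28 to 1.94 (8 of 15 kept, not without saline replicates 1, 2 and 6 or TSLP replicates 1, 5, 6 and 7), 500 ng against saline in naive lungs at 6 h from 0.93 to 1.32 (12 of 16, not without saline or TSLP replicates 5 and 8), and 500 ng and 1500 ng against buffer in OVA lungs at 24 h from 0.99 to 1.75 (9 of 15, not without buffer replicates 2, 5 and 7 or TSLP replicates 5, 7 and 8) and 0.72 to 1.60 (4 of 15, kept only without buffer replicates 3, 4 and 8 or TSLP replicate 1). The change of the 500 ng effect with time ran from -2.06 to -1.35, not called without OVA saline 6 h replicate 6 or OVA TSLP 500 ng 24 h replicate 4. OVA minus naive with buffer at 24 h ran from 1.23 to 1.84, not called without OVA replicates 3, 4 or 8, and 24 h minus 6 h in OVA saline lungs from 0.90 to 1.48, not called without OVA saline 6 h replicate 6 or 24 h replicate 8. Against buffer in naive lungs at 6 h, 1500 ng gave 0.09 to 0.52, and the untested 3.35 ran from 3.14 to 3.54. For Cyp26b1, 24 h minus 6 h ran from -1.03 to -0.83 with saline (11 of 15, not without 6 h replicates 6 and 8 or 24 h replicates 1 and 8) and from -1.23 to -0.87 with 500 ng (4 of 15, kept only without 6 h replicates 2, 7 and 8 or 24 h replicate 5) in OVA lungs. Against buffer, 1500 ng ran from 0.29 to 0.98 in OVA lungs at 24 h (called only without TSLP replicate 4), from -0.06 to 0.62 in naive lungs at 6 h and from 1.10 to 1.59, untested, in naive lungs at 24 h. For 500 ng against saline in naive lungs at 24 h it ran from 0.30 to 0.70. The cause of these changes was not tested.

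Numbers of genes called also moved. For 1500 ng against buffer in naive lungs at 6 h it was 2071, against 3893 with array weights, 629 with the beta-actin covariate, 3483 without gullet arrays, 20 with only the compared groups, and 807 to 3413 without 1 lung (buffer replicate 5 gave 807, replicate 2 gave 1178 and replicate 6 gave 3413). For 500 ng against saline in OVA lungs at 6 h it was 5689, against 1528 with the beta-actin covariate. For 500 ng against saline in naive lungs at 24 h it was 2, against 299 with array weights, 1 with mean probe sets, a robust prior or the block, 0 with the dim filter or only the compared groups, and 0 to 5 without 1 lung.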
